A study of Homo sapiens with 12 samples.

Results

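The VEGF family consists of secreted ligands that act on receptor tyrosine kinases and on neuropilin co-receptors. VEGF-A drives the growth of blood vessels mainly through KDR (VEGF receptor 2), whereas VEGF-C drives the growth of lymphatic vessels mainly through FLT4 (VEGF receptor 3). FLT1 (VEGF receptor 1) binds VEGF-A, VEGF-B, and PlGF, and its soluble form holds VEGF-A back from KDR. E2F1 is a transcription factor of the cell cycle, and VEGFA is a well-known target of the hypoxia-inducible factors. The 9 genes described here were chosen by name from the 25369 genes listed in the count data. They comprise 4 ligand genes (VEGFA, VEGFB, VEGFC, and PGF), 3 receptor kinase genes (FLT1, KDR, and FLT4), and 2 neuropilin genes (NRP1 and NRP2). All 9 were listed, and 8 passed the filter on low counts. KDR did not pass it, with 69 reads over all samples. The remaining ligand of the family, VEGF-D (listed as FIGF), had 12 reads over all samples and was not tested.

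Transcripts were measured by poly(A) RNA sequencing in U2OS cells, a human osteosarcoma line, carrying a Tet-On system. The 4 stable lines carried the empty pTRE vector, HA-tagged WT E2F1, HA-tagged E2F1 R109K, or HA-tagged E2F1 with the R111/113K change (KK), with 3 biological replicates each. R109K lacks an arginine that PRMT1 methylates, and KK lacks the arginines that PRMT5 methylates. The 12 samples, pTRE included, came from cells kept under G418 and hygromycin B that had received doxycycline at 1 µg/ml for 24 hours. The sources do not say whether each line grew from 1 clone, so an effect of the E2F1 protein and a difference between stable lines cannot be told apart.

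Reads on genes numbered from 11500537 to 31040903 per sample. The lowest total was that of WT replicate 2, in which 58.7% of reads were assigned to no annotated feature, against 23.6 to 29.6% in the other samples. E2F1 transcripts, from the cells' own gene and from the construct together, stood at 91.2 ± 9.43 CPM (reads scaled to TMM library size, mean ± SD, n = 3) in pTRE, 1811 ± 445 in WT, 1158 ± 196 in R109K, and 1316 ± 187 in KK (n = 3 each). Of the endothelial markers, PECAM1, EMCN, and CDH5 did not pass the filter on low counts, with 7, 2, and 64 reads over all samples. ERG was the highest marker in every line, at 5.69 ± 0.804 CPM in pTRE, 9.14 ± 0.515 in WT, 8.80 ± 0.913 in R109K, and 9.80 ± 1.72 in KK. The summed level of the 10 markers was 13.5 to 17.5 CPM in pTRE, 16.2 to 17.3 in R109K, 21.5 to 23.8 in WT, and 18.3 to 25.2 in KK. Of the 7 endothelial markers tested, ROBO4 (an endothelial guidance receptor) rose and VWF (a clotting factor carrier) fell in all 3 comparisons with pTRE. The summed level of the 7 osteosarcoma or mesenchymal markers was 6145 to 7406 CPM in pTRE and 2197 to 3396 CPM over the other lines, with COL1A1 (a collagen of bone) lower in all 3 comparisons. KRT8 (a keratin) among the epithelial markers was called as lower in WT alone, with means of 503 CPM in pTRE, 238 in WT, 301 in R109K, and 268 in KK. CD14 among the blood cell markers was called as higher in WT alone, with means of 0.308, 0.937, 0.602, and 0.634 CPM in the same order. No other marker of those lists was called. The part of these differences in the results was not tested, and in bulk RNA a smaller number of expressing cells and less RNA per cell cannot be told apart.

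The question put to each gene was whether its transcript level differed between an E2F1 line and pTRE, and between the E2F1 lines. To be called, a gene had to change by more than 2-fold with a Benjamini-Hochberg adjusted p under 0.01 in the quasi-likelihood test of edgeR. FLT4, FLT1, and VEGFC passed both thresholds in WT and in KK against pTRE, all upward. In R109K against pTRE, FLT4 alone passed both. No family gene passed in a direct comparison between E2F1 lines.

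The sequences just upstream of FLT1 and VEGFC are shown because these genes rose together in WT and KK, and that of E2F1 because it holds the E2F letters that they lack. Each is the 250 bases before the start of the canonical transcript in GRCh37, written 5′ to 3′ on the strand of the gene. Capitals mark matches on either strand to the GC box GGGCGG (reverse complement CCGCCC), the cAMP response element TGACGTCA, or the E2F letters TTTCCCGC, TTTCGCGC, TTTGCCGC, and TTTGGCGC. The sequences are FLT1 (chr13:29069266-29069515, minus strand), VEGFC (chr4:177714077-177714326, minus strand), and E2F1 (chr20:32274192-32274441, minus strand).
FLT1: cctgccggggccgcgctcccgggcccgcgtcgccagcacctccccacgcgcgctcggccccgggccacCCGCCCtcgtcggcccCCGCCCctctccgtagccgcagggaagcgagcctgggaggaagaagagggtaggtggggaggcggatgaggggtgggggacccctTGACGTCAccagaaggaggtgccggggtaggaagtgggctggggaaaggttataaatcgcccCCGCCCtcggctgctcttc
VEGFC: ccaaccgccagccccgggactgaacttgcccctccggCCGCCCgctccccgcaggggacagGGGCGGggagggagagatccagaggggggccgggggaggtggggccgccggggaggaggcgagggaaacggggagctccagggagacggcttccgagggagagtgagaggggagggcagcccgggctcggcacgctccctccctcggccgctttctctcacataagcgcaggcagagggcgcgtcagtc
E2F1: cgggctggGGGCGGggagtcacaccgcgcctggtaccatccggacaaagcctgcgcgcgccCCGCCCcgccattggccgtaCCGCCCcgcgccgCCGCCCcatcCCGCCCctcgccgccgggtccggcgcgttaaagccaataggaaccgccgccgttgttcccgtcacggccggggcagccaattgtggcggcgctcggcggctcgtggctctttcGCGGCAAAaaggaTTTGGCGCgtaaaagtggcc
None of the 8 family genes searched held the E2F letters from 900 bases before to 100 bases after the start, where 10.0% of the 14515 tested promoters did. E2F1 held 2 matches, beginning 33 and 20 bases before its start. FLT1 held the cAMP response element 81 bases before its start, an element present in 2.71% of tested promoters between 250 bases upstream and the start. At least 1 GC box lay within those 250 bases in each of these 8 genes except NRP1, and in 67.6% of tested promoters. The core hypoxia response letters ACGTG were searched from 900 bases before to 100 bases after the start. They lay in this window in VEGFA, VEGFC, PGF, KDR, and NRP2, and in 55.3% of tested promoters. The GC box and the cAMP response element were looked for after these sequences had been read. Each match, or lack of one, is a description of the letters. Other forms of each site were not searched, so a gene without the exact E2F letters is not thereby classed as a non-target of E2F1.

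VEGFA, the ligand of blood vessel growth, is on chromosome 6 of GRCh37 (43737921 to 43754224, plus strand). Its level was 93.7, 99.7, and 118 CPM in the 3 pTRE samples and 73.1, 67.2, and 90.6 CPM in the WT samples. R109K samples had 71.6, 80.2, and 90.2 CPM and KK samples had 75.6, 68.5, and 87.3 CPM. Every pTRE sample was thus above every sample of the E2F1 lines, although the E2F1 lines overlapped with each other. The log2 fold change against pTRE was -0.43 ± 0.14 (SE) in WT, -0.36 ± 0.14 in R109K, and -0.43 ± 0.14 in KK. The adjusted p-values from edgeR were 0.0261, 0.0698, and 0.0281, and none was under 0.01. With the replicate number as a block they were 0.00436 in WT and 0.00481 in KK, but all changes stayed short of 2-fold. Over all alternatives the adjusted p in WT ran from 0.00436 to 0.118, and without WT replicate 2 the log2 fold change was -0.34.

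VEGFB is a ligand of FLT1 known for its role in heart and fat tissue, and it lies on chromosome 11 (64002056 to 64006736, plus strand). It stood at 72.0, 66.8, and 80.5 CPM in pTRE and at 47.5, 38.5, and 56.7 CPM in WT, with no overlap. In R109K it was 55.2, 68.3, and 60.8 CPM and in KK 51.2, 85.3, and 56.3 CPM, and both ranges overlapped that of pTRE. The log2 fold change in WT was -0.62 ± 0.18 with an adjusted p of 0.0137 from edgeR, and it was -0.49 without WT replicate 2. The adjusted p ran from 0.00566 (DESeq2) to 0.059 over the alternatives, and the change of 1.53-fold downward was short of 2-fold. The changes in R109K and KK were -0.25 ± 0.18 and -0.19 ± 0.18. KK replicate 2 was the highest of the 12 samples.

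VEGFC, the ligand of lymphatic vessel growth, is on chromosome 4 (177604689 to 177714076, minus strand). Its level was 7.60, 10.0, and 6.87 CPM in pTRE, against 18.5, 16.4, and 18.5 CPM in WT and 17.6, 20.1, and 18.5 CPM in KK. R109K lay between them, at 12.5, 12.4, and 12.2 CPM. No R109K sample reached a WT or KK sample, and no pTRE sample reached an R109K sample. Against pTRE, VEGFC rose 2.18-fold in WT (log2 fold change 1.13 ± 0.14, adjusted p = 2.03e-05, edgeR) and 2.29-fold in KK (1.20 ± 0.14, adjusted p = 1.16e-05, edgeR). In R109K the log2 fold change was 0.60 ± 0.14 (adjusted p = 0.00528, edgeR), past the p threshold and short of 2-fold. Its adjusted p rose to between 0.0156 and 0.0283 when any 1 of the R109K replicates or pTRE replicate 1 or 3 was left out. Leaving out WT replicate 2 gave 1.18 in WT.

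PGF encodes PlGF, a ligand of FLT1 first known from placenta, and lies on chromosome 14 (75408537 to 75422329, minus strand). It was measured at 8.76, 9.54, and 11.9 CPM in pTRE and at 10.6, 8.91, and 12.4 CPM in WT. R109K samples held 10.7, 14.3, and 11.0 CPM, and KK samples 11.2, 15.3, and 13.1 CPM. The lines overlapped throughout. The log2 fold changes against pTRE ran from 0.09 ± 0.18 in WT to 0.39 ± 0.17 in KK, with 0.25 ± 0.17 in R109K, and none was called. The interval of the WT change reached from -0.29 to 0.47 at 95%.

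FLT1, on chromosome 13 (28874483 to 29069282, minus strand), was detected at a low level. Its counts were 8, 4, and 8 reads in pTRE, 42, 20, and 29 in WT, 16, 17, and 14 in R109K, and 23, 31, and 42 in KK. As CPM these were 0.33, 0.15, and 0.29 in pTRE, 1.5, 1.61, and 1.05 in WT, 0.52, 0.62, and 0.57 in R109K, and 0.80, 1.49, and 1.66 in KK. As for VEGFC, the R109K samples lay above all pTRE samples and below all WT and KK samples. FLT1 rose 5.22-fold in WT (log2 fold change 2.38 ± 0.41, adjusted p = 3.17e-04, edgeR) and 4.99-fold in KK (2.32 ± 0.41, adjusted p = 3.90e-04, edgeR). With these few reads the 95% interval in WT reached from 1.51 to 3.26 on the log2 scale. The change in R109K was 1.13 ± 0.43 (adjusted p = 0.0628, edgeR) and was not called. Without WT replicate 2 the change in WT was 2.28.

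KDR, the main signalling receptor of VEGF-A, lies on chromosome 4 (55944648 to 55991762, minus strand) and was close to the limit of detection. It had 4, 4, and 0 reads in pTRE, 7, 4, and 7 in WT, 8, 3, and 6 in R109K, and 15, 5, and 6 in KK. With the filter on low counts removed, the log2 fold changes against pTRE were 1.32 ± 0.80 in WT, 0.95 ± 0.79 in R109K, and 1.65 ± 0.77 in KK. Their adjusted p-values from edgeR were 0.234, 0.489, and 0.127. No difference in KDR was detected at this depth, and in KK the unadjusted p from edgeR was 0.0418.

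FLT4, the receptor for VEGF-C, is on chromosome 5 (180028506 to 180076624, minus strand) and was the most abundant of the 3 receptor kinases. It stood at 23.1, 22.8, and 28.5 CPM in pTRE and at 61.2, 58.0, and 59.0 CPM in WT. R109K samples had 57.1, 50.1, and 59.4 CPM, and KK samples had 69.4, 61.9, and 66.8 CPM. All 9 samples of the E2F1 lines were well above the 3 pTRE samples. The rise was 2.39-fold in WT (log2 fold change 1.26 ± 0.12, adjusted p = 9.88e-07), 2.24-fold in R109K (1.16 ± 0.12, adjusted p = 3.74e-06), and 2.66-fold in KK (1.41 ± 0.12, adjusted p = 3.02e-07, edgeR for all 3). In contrast to VEGFC and FLT1, the R109K and WT samples of FLT4 overlapped. The value in WT was 1.27 without WT replicate 2.

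NRP1, a co-receptor of VEGF-A and of class 3 semaphorins, is on chromosome 10 (33466420 to 33625190, minus strand). It was at 175, 153, and 152 CPM in pTRE and at 171, 153, and 174 CPM in WT. R109K samples held 141, 120, and 137 CPM, below all samples of the other 3 lines, while KK samples held 219, 171, and 190 CPM. The log2 fold changes against pTRE were 0.05 ± 0.12 in WT, -0.27 ± 0.12 in R109K, and 0.27 ± 0.12 in KK, and none was called. NRP2, a co-receptor of VEGF-C, is on chromosome 2 (206546714 to 206662857, plus strand) and had only 9 to 20 reads per sample. Its level was 0.37 to 0.62 CPM in pTRE, 0.36 to 0.65 in R109K, 0.51 to 0.72 in WT, and 0.58 to 0.75 in KK. These ranges overlapped, and the log2 fold changes against pTRE of 0.09 ± 0.38, -0.13 ± 0.37, and 0.28 ± 0.37 in WT, R109K, and KK were not called.

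**Figure D1:**
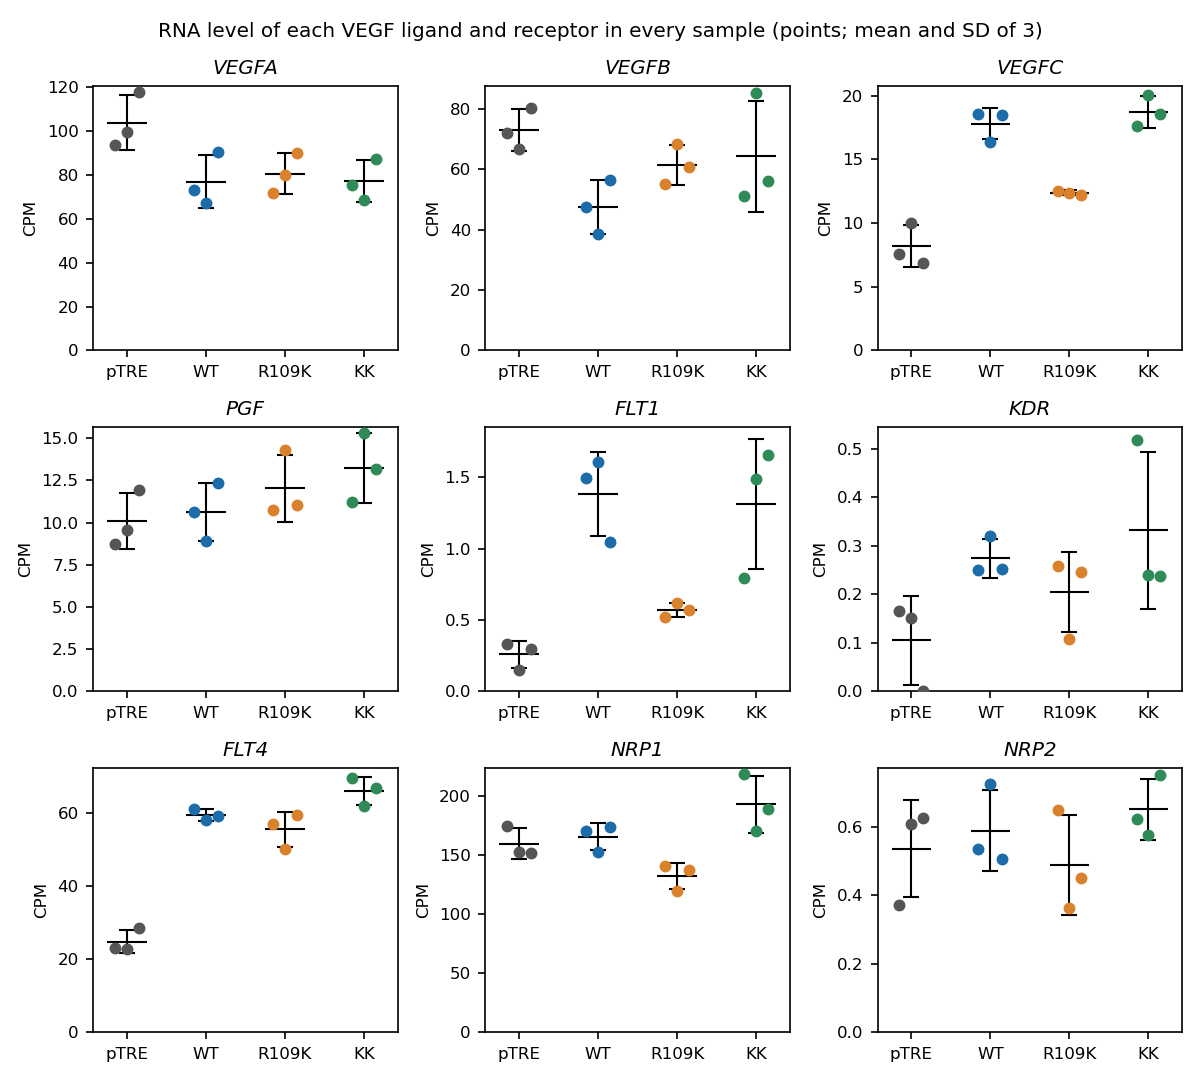
TMM-normalized CPM (vertical axis, from 0) of the 9 family genes in each of the 3 samples of the pTRE, WT, R109K, and KK lines (points), with the mean and SD of each line (black). FLT4 is higher in all 9 samples of the E2F1 lines than in pTRE, and VEGFC and FLT1 take R109K values between those of pTRE and those of WT and KK.

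In WT against pTRE, 3 of the 8 genes tested were called, where 11.8% of all 16625 tested genes were called and 7.89% were called as higher. The samples of the lines did not overlap for 5 of the 8 genes (51.5% of all tested genes). In KK against pTRE, 3 of 8 were called (10.9% of all genes, 7.01% as higher), and 4 did not overlap (49.4%). In R109K against pTRE, 1 of 8 was called (7.19% of all genes, 4.64% as higher), and 5 did not overlap (47.2%). The median log2 fold change of the 8 genes was 0.09 in WT, 0.33 in KK, and 0.06 in R109K, against 0.0022, -0.0091, and -0.00074 over all tested genes. These 3 comparisons share the same pTRE samples and are not independent of each other.

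**Figure D2:**
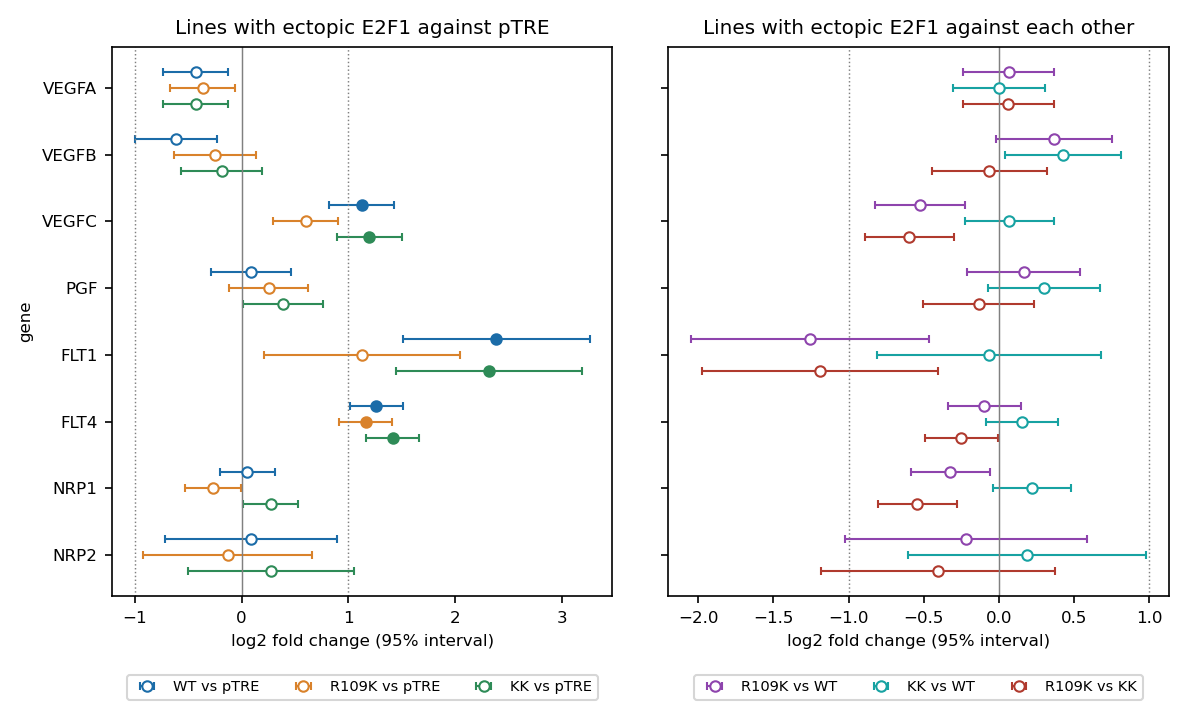
Log2 fold changes (horizontal axis) of the 8 family genes tested, with 95% intervals from edgeR, for the E2F1 lines against pTRE on the left and against each other on the right. Filled circles passed an adjusted p-value of 0.01 and 2-fold (dotted lines), namely FLT4 in all 3 lines and VEGFC and FLT1 in WT and KK, and every circle of the direct comparisons is open.

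The direct comparisons address whether the E2F1 lines differ from each other in these levels. For R109K against WT, 0 of 8 genes were called (0.343% of all genes) by edgeR and 0 by DESeq2, 3 had an unadjusted p-value under 0.05, and 3 did not overlap (27.1% of all genes). These 3 were VEGFC at -0.53 ± 0.14 on the log2 scale (adjusted p = 0.0522, edgeR), FLT1 at -1.26 ± 0.37 (adjusted p = 0.0743, edgeR), and NRP1 at -0.32 ± 0.12 (adjusted p = 0.147, edgeR). For R109K against KK, 0 of 8 were called (0.0902% of all genes) by either tool, 4 had an unadjusted p-value under 0.05, and 4 did not overlap (21% of all genes). VEGFC was at -0.60 ± 0.14 (adjusted p = 0.0527, edgeR) and FLT1 at -1.19 ± 0.37 (adjusted p = 0.143, edgeR). NRP1 was at -0.54 ± 0.12 (adjusted p = 0.0457, edgeR) and FLT4 at -0.25 ± 0.11 (adjusted p = 0.374, edgeR). DESeq2 gave adjusted p-values of 0.00510 for VEGFC and 0.00109 for NRP1 in this comparison, both with a change short of 2-fold. Over all alternatives the adjusted p-values ran from 0.00510 to 0.227 for VEGFC and from 0.00109 to 0.211 for NRP1.

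For KK against WT, 0 of 8 genes were called (0.00602% of all genes) by edgeR and 0 by DESeq2. VEGFB had the only unadjusted p-value under 0.05, at 0.43 ± 0.18 (adjusted p = 0.574, edgeR), with overlapping samples. FLT4 was the gene that did not overlap (9.97% of all genes), at 0.15 ± 0.11. The 95% intervals of the KK and WT difference were -0.23 to 0.36 for VEGFC, -0.81 to 0.68 for FLT1, and -0.09 to 0.40 for FLT4. The log2 fold change of E2F1 RNA itself was -0.65 ± 0.18 in R109K against WT (adjusted p = 0.0577, edgeR), -0.18 ± 0.18 in R109K against KK (adjusted p = 0.773, edgeR), and -0.46 ± 0.18 in KK against WT (adjusted p = 0.574, edgeR), and none was called. The part of the E2F1 level in the values of VEGFC, FLT1, and NRP1 was not tested.

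Levels of different genes were compared per kilobase of exon, with all exons of a gene joined. Among the ligands in pTRE, VEGFB led with 37.1 ± 3.50 CPM per kilobase, followed by VEGFA with 7.19 ± 0.872, VEGFC with 3.12 ± 0.632, and PGF with 1.74 ± 0.286. In WT, VEGFB stood at 24.1 ± 4.62, VEGFC at 6.80 ± 0.466, VEGFA at 5.33 ± 0.844, and PGF at 1.83 ± 0.297. The mean of VEGFB stayed above that of VEGFA with each length, but the size of its lead depended on the length used. The mean transcript length gave 66.5 ± 6.27 for VEGFB and 56.6 ± 6.87 for VEGFA in pTRE, and 43.3 ± 8.28 and 42.0 ± 6.64 in WT, within the spread. Canonical transcript lengths gave 40.5 ± 3.82 and 28.8 ± 3.49 in pTRE, and 26.3 ± 5.04 and 21.3 ± 3.37 in WT. VEGFC made up 6.43% ± 1.71 of the ligand total in pTRE and 18.03% ± 1.87 in WT (SD, n = 3), or 4.06% ± 1.08 and 11.4% ± 1.19 with the mean transcript length. The place of VEGFA below VEGFC in WT depended on the length used, since VEGFA was above VEGFC with the mean transcript length (42.0 against 11.8 CPM per kilobase). In pTRE the order of VEGFC and PGF turned in the same way (5.41 against 6.63 with the mean transcript length). Without any length, VEGFA had 13.1 ± 3.68 reads for each VEGFC read in pTRE, 4.32 ± 0.515 in WT, 6.52 ± 0.845 in R109K, and 4.14 ± 0.666 in KK.

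Among the receptors in pTRE, NRP1 led with 13.9 ± 1.14 CPM per kilobase, ahead of FLT4 with 2.80 ± 0.359. NRP2 at 0.038 ± 0.010, FLT1 at 0.021 ± 0.0075, and KDR at 0.017 ± 0.014 were far below, and FLT1 and KDR did not differ beyond their spread. FLT4 made up 16.8% ± 2.5 of the receptor total in pTRE and 31.5% ± 1.09 in WT, 35.0% in R109K, and 30.6% in KK. FLT1 in WT reached 0.110 ± 0.024 CPM per kilobase and stood above NRP2 at 0.042 ± 0.0085.

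The genes whose profile over the 12 samples was most like that of each called gene were taken from 13299 genes by Pearson's r of log2 CPM, and the 12 samples share the difference between the lines. For VEGFC they were BCL2A1 (r = 0.972), ANTXR2 (0.966), and POLR3G (0.964). For FLT1 they were NLRP3 (r = 0.962), FOXC1 (0.950), and KCNMB3 (0.949). For FLT4 they were IGFBPL1 (r = 0.993), ZNF385B (0.993), and ROR2 (0.990).

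Genes around the VEGF pathway were described by lists. Of 112 listed genes 104 were tested, and 11 rose and 13 fell in WT against pTRE (23.1% of those tested), 10 rose and 16 fell in KK (25%), and 7 rose and 14 fell in R109K (20.2%). These shares stand beside 11.8%, 10.9%, and 7.19% over all genes. The median log2 fold change of the 104 genes was -0.06, -0.11, and -0.11. The lists were chosen with earlier results of these data known, so their counts are a description. A gene called in some lines could move the same way in the others, short of a threshold. In the direct comparisons, 0 of the 104 genes were called in R109K against WT and in KK against WT, and 1 in R109K against KK.

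Upstream of VEGFA, 2 of the 8 tested genes of oxygen sensing were called in WT (25%), 1 in KK, and 1 in R109K (12.5% each). Over all genes the shares were 11.8%, 10.9%, and 7.19%, so that of KK stood near its share over all genes. HIF1A, which encodes the oxygen-regulated subunit of the hypoxia-inducible factor, was at 229 ± 28.1 CPM in pTRE and 323 ± 49.0 in WT (log2 fold change 0.50 ± 0.17, adjusted p = 0.0290, edgeR) and was not called. VHL, which marks that subunit for breakdown, was at 110 ± 9.78 CPM in pTRE and 110.6 ± 19.2 in WT, at 0.01 ± 0.13. EPAS1, which encodes the related subunit HIF-2α, rose in WT from 23.1 ± 2.96 to 50.2 ± 7.01 CPM (1.12 ± 0.14). It was at 0.97 ± 0.14 in KK (adjusted p = 8.55e-05, edgeR), short of 2-fold, and at 0.40 ± 0.14 in R109K (adjusted p = 0.0504, edgeR), short of both thresholds. EGLN3, an oxygen-dependent prolyl hydroxylase, fell in all 3 lines, by 1.24 in WT, 1.35 in KK, and 1.17 in R109K on the log2 scale.

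Of 14 hypoxia-responsive genes, 0 rose in any comparison with pTRE by edgeR, and 4 fell in WT, 5 in KK, and 3 in R109K. These were 28.6%, 35.7%, and 21.4% of the list, where 11.8%, 10.9%, and 7.19% of all genes were called in either direction. Of all 16625 tested genes, 653 fell in WT, 649 in KK, and 425 in R109K. CA12, a carbonic anhydrase, went from 86.8 ± 3.35 CPM in pTRE to 26.5 ± 6.37 (WT), 32.9 ± 2.84 (R109K), and 29.1 ± 3.44 (KK). P4HA1, a collagen prolyl hydroxylase, also fell in all 3 lines, by 1.09 in WT on the log2 scale. DDIT4, an inhibitor of mTORC1, fell by 1.88 in WT and by 1.62 in KK, and PFKFB4, a regulator of glycolysis, fell in KK alone among the calls. The median of the list was -0.48 in WT, -0.48 in KK, and -0.22 in R109K. VEGFA was at -0.43, -0.43, and -0.36, and a link between VEGFA and the list was not tested.

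**Figure D3:**
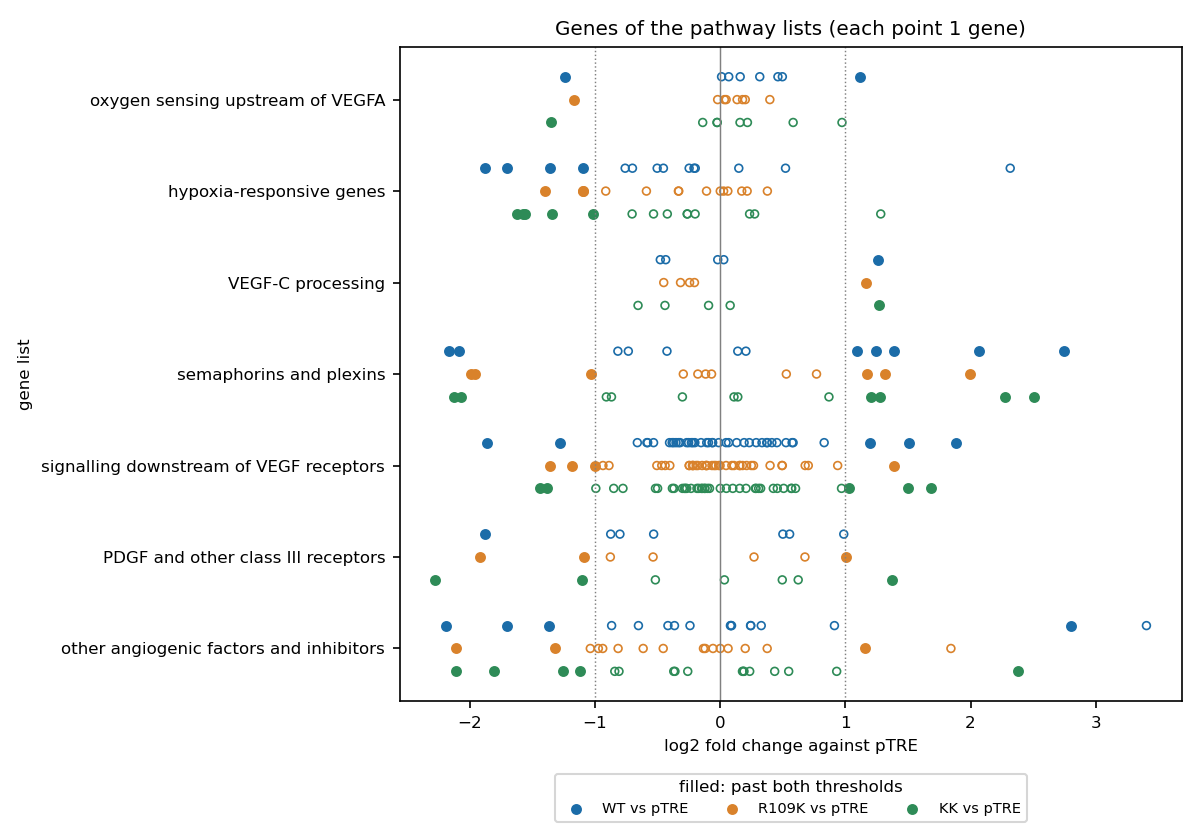
Log2 fold changes against pTRE (horizontal axis) of every tested gene of 7 pathway lists (vertical axis), with 1 point per gene and 1 row of points per E2F1 line, filled where both thresholds were passed. The hypoxia-responsive list has filled points only below 0, and the semaphorin and plexin list has filled points on both sides.

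VEGF-C is made as a precursor that proteases cut. Of 5 processing genes, PCSK5, a proprotein convertase, was the one called, and it rose in all 3 lines. That is 20% of the list, against 11.8% (WT), 10.9% (KK), and 7.19% (R109K) over all genes. PCSK5 was at 16.1 ± 2.23 CPM in pTRE, 38.7 ± 3.13 in WT, 36.1 ± 4.58 in R109K, and 38.9 ± 6.71 in KK (log2 fold changes 1.26, 1.16, and 1.27). CCBE1 went from 45.8 ± 3.18 CPM in pTRE to 33.9 (WT), 36.9 (R109K), and 29.1 (KK). ADAMTS3 went from 72.0 ± 1.66 to 51.6, 52.7, and 53.1, and neither was called. FURIN and PCSK7 were not called. The median log2 fold change of the list was -0.02 in WT, -0.09 in KK, and -0.24 in R109K. The class 3 semaphorins and plexins act as ligands and signalling partners of the neuropilins. Of the 12 listed, 5 rose and 2 fell in WT, 4 rose and 2 fell in KK, and 3 rose and 3 fell in R109K. These calls made up 58.3%, 50%, and 50% of the list, against 11.8%, 10.9%, and 7.19% over all genes. The plexin PLXNA2 rose from 11.2 ± 2.87 CPM in pTRE to 75.3 ± 13.6 (WT), 44.6 ± 5.89 (R109K), and 63.9 ± 6.66 (KK). PLXNA4 rose by 2.07, 1.17, and 2.27 on the log2 scale in WT, R109K, and KK. SEMA3A, a semaphorin ligand of NRP1, rose in all 3 lines, and PLXND1 was called as higher in WT and KK. PLXNA3 was called in WT alone, with means of 43.9 CPM in pTRE, 94.0 in WT, 63.4 in R109K, and 80.3 in KK. SEMA3B, a semaphorin, fell from 66.8 ± 10.9 CPM in pTRE to 14.9 ± 2.64 for WT, 16.8 ± 1.31 for R109K, and 15.3 ± 2.28 for KK. SEMA3G also fell in all 3 lines, by 2.09 in WT. SEMA3C was called as lower in R109K alone, with means of 62.4 CPM in pTRE, 35.4 in WT, 30.5 in R109K, and 34.2 in KK.

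Downstream of the receptors, 41 genes were tested, of which 3 rose and 2 fell in WT and in KK, and 1 rose and 3 fell in R109K. These shares, 12.2%, 12.2%, and 9.76%, stood near the shares over all genes. SPHK1, which makes sphingosine 1-phosphate, rose by 1.51 in WT and by 1.5 in KK on the log2 scale, and PLCG2, a phospholipase C, rose in the same 2 lines. HSPB1, a small heat shock protein, fell from 612 ± 133 CPM in pTRE to 168 ± 55.6 (WT), 305 ± 49.3 (R109K), and 235 ± 73.7 (KK). SHC2, an adaptor that binds KDR, fell in all 3 lines, by 1.28 in WT. NFATC2, a transcription factor of the calcineurin pathway, was called as lower in R109K alone. Its means were 17.4 CPM in pTRE, 11.1 in WT, 7.66 in R109K, and 8.73 in KK.

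The PDGF receptors belong to a related group of receptor kinases. PDGFRB fell from 48.4 ± 6.35 CPM in pTRE to 13.2 ± 1.64 (WT), 12.9 ± 2.17 (R109K), and 10.0 ± 2.44 (KK). PDGFRA fell in KK and R109K, by 1.10 and by 1.08 on the log2 scale, and its value in WT was -0.80 ± 0.19. The ligand gene PDGFC rose in KK and in R109K, at 1.37 ± 0.18 and 1.00 ± 0.18, and was at 0.99 ± 0.19 in WT. Of 17 other angiogenic factors and inhibitors, 1 rose in each line and 3, 4, and 2 fell in WT, KK, and R109K. The shares called were 23.5%, 29.4%, and 17.6%, against 11.8%, 10.9%, and 7.19% over all genes. DLL4, a Notch ligand of vessel sprouts, rose in WT and KK from a low level and was at 0.102 ± 0.017 CPM in pTRE and 0.760 ± 0.161 in WT. VASH2, a vasohibin, was called as higher in R109K alone, with means of 3.79 CPM in pTRE, 7.14 in WT, 8.45 in R109K, and 7.21 in KK. ANGPT1, a ligand of the receptor TEK, fell in all 3 lines, from 1.28 ± 0.186 to 0.272 ± 0.046 CPM in WT. TIMP3, an inhibitor of metalloproteinases that also blocks KDR, fell from 82.5 ± 11.96 CPM in pTRE to 25.3 ± 3.49 (WT), 33.1 ± 4.87 (R109K), and 23.7 ± 4.42 (KK). SPARC, a matrix protein, fell by 1.37 in WT and by 1.12 in KK. COL18A1, the source of endostatin, was called as lower in KK alone, with means of 26.7 CPM in pTRE, 14.7 in WT, 15.2 in R109K, and 11.2 in KK.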

How the data were processed

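RNA was measured in 12 samples, in triplicate for the pTRE, WT, R109K, and KK lines, as grouped by the labels. The authors deposited raw counts of reads per gene symbol, made from reads trimmed with Trim Galore 0.4.3 and aligned to hg19 with STAR 2.5.1 per the submitters' processing notes. The gene annotation and the strand setting of the counting are not given in the sources used here, and VEGFA, VEGFC, KDR, NRP1, and NRP2 overlap opposite-strand transcripts in GENCODE. Summary lines for uncounted reads held 34.3 to 68.8% of reads per sample and were left out.

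The counts were fitted in edgeR 4.0.16 (R 4.3.3), by TMM normalization, filterByExpr (16625 genes kept), and 1 quasi-likelihood model of all 12 samples, with p-values adjusted over all tested genes. Standard errors came from the test statistic. CPM used TMM library sizes. With 3 replicates per line the common dispersion was 0.0239. DESeq2 1.42.0, RLE normalization, no filter, only the 6 samples compared, a replicate block, leaving out each replicate, and an adjusted p-value under 0.05 were tried as alternatives, and canonical transcript lengths and the alternatives for THBS1 were added after seeing the data. No replicate pair agreed within sampling noise.

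The family genes and the lists were chosen with earlier results of these data known. Named were all family genes, E2F1, of each list at most the 4 called genes with the largest mean absolute change against pTRE, HIF1A, VHL, EPAS1, and for each called family gene the 3 genes most like it with a mean count of at least 50. PLXNA3, PLXND1, SEMA3A, SEMA3C, PFKFB4, PLCG2, NFATC2, VASH2, COL18A1, CCBE1, ADAMTS3, FURIN, PCSK7, CA9, KDM3A, ERG, and THBS1 were named after their values were seen. Some items covered by this rule are not reported here, and the promoter search covered the other 8 family genes without FLT4. Positions, exon lengths, and promoters came from the GENCODE annotation and the GRCh37 reference. Calculations outside R used Python 3.11.15 with pandas 2.3.3, numpy 2.4.6, and scipy 1.17.1.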

Additional observations from a re-analysis of the deposited data

Results flagged for a closer look

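THBS1, which encodes the angiogenesis inhibitor thrombospondin-1, drew attention because its effects in R109K and KK differed by the test of the difference itself. Its level was 316 ± 48.8 CPM in pTRE, 334 ± 5.12 in WT, 231 ± 20.5 in R109K, and 462 ± 64.9 in KK (SD, n = 3 each). The log2 fold change of R109K against KK was -1.002 ± 0.14 (adjusted p = 0.00451, edgeR), with no overlap of the samples and the change just past the 2-fold threshold. The gene was named after its values were seen, and the alternatives for it were added then. The call was lost without the filter on low counts (-0.99, adjusted p = 0.00100, edgeR), in the fit of the 6 samples compared (-1.002, adjusted p = 0.0216, edgeR), and with the replicate block (-1.002, adjusted p = 0.0120, edgeR), and DESeq2 kept it. The call was also lost without any 1 of the R109K replicates or without KK replicate 1 or 3. THBS1 was the 1 called gene of 104 on the pathway lists in that comparison (0.962%), against 0.0902% over all genes.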

How the results depend on the processing

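The counts of called family genes were 3, 3, and 1 in WT, KK, and R109K against pTRE and 0 in each direct comparison under DESeq2, RLE normalization, no filter, only the 6 samples compared, an adjusted p-value under 0.05, and each replicate left out. Whether the replicate numbers pair the samples could not be decided from correlations between samples, since the ranges overlapped. Correlations ran from -0.295 to 0.470 over the 18 pairs that share a number (mean 0.0436). Over the 36 pairs with different numbers they ran from -0.383 to 0.314 (mean -0.0235). A fit with the replicate block again gave counts of 3, 3, 1, 0, 0, and 0. The 48 log2 fold changes kept their direction and their call by both thresholds together under the alternatives that keep all samples of a comparison. The adjusted p alone crossed 0.01 for VEGFA in WT and KK against pTRE (0.00436 and 0.00481 with the block), for VEGFB in WT (0.00566 with DESeq2 and 0.00649 without the filter), and for VEGFC and NRP1 in R109K against KK (0.00510 and 0.00109 with DESeq2). Leaving out 1 replicate turned the direction of 8 small changes that were not called. For PGF and NRP2 in WT against pTRE the ranges were -0.034 to 0.23 and -0.11 to 0.22, and for NRP2 in R109K against pTRE -0.40 to 0.044. For VEGFA they were -0.027 to 0.20 in R109K against WT, -0.10 to 0.14 in KK against WT, and -0.024 to 0.16 in R109K against KK. For FLT1 in KK against WT the range was -0.28 to 0.21, and for VEGFB in R109K against KK -0.21 to 0.19. The genes called on the pathway lists numbered 0 in R109K against WT and 1 in R109K against KK, 1 and 2 with DESeq2, and 0 to 1 in both when a replicate was left out. THBS1 was the gene lost in R109K against KK, without any 1 of the R109K replicates or without KK replicate 1 or 3, where the count was 0. The cause was not tested. Shares per kilobase moved with the length used. VEGFB made up 75.4% of the ligand total in pTRE and 63.1% in WT, 49.2% and 41.4% with mean transcript lengths, and 51.5% and 42.6% with canonical lengths. NRP1 made up 82.8% of the receptor total in pTRE and 67.6% in WT, 86.6% in pTRE with canonical lengths, and 70.3% and 73.6% in WT with mean transcript and canonical lengths. Depth limits KDR, NRP2, and FLT1 most, with 0 to 42 reads per sample.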
